A study of Mus musculus with 6 samples.

Results

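The genes described are 7 transcription factor genes that pattern the hair matrix and the layers of the hair follicle (HF): *Msx1*, *Msx2*, *Hoxc13*, *Foxn1*, *Gata3*, *Cux1* and *Runx1*. They were taken by symbol from the gene count table, and all 7 were found among its 22295 genes. RNA was sequenced from GFP-positive keratinocytes sorted from the epidermis of K19 *Itga3* WT mice, which carried K19(Cre-ERT); mTmG, and of K19 *Itga3* KO mice, which carried K19(Cre-ERT); mTmG; Itga3 fl/fl, all on FVB, with 3 libraries per genotype, each from its own mouse. All mice received tamoxifen, for which the labels give 10 mg/ml over 4 days at 6 weeks of age, while the methods of the study give another concentration and a slightly younger age. At 7 weeks the carcinogen DMBA was applied in 1 dose of 30 ug, and the tumor promoter TPA (12.34 ug) was then applied for 2 weeks. The mTmG allele switches a cell and its progeny to GFP once Cre has acted, and the K19 promoter drives Cre in the hair bulge (HB), so the sorted population held HB keratinocytes together with their descendants, and it had no arm without DMBA/TPA or without Cre. The comparison addressed whether loss of integrin α3β1, of which *Itga3* encodes the α3 subunit, was accompanied by other levels of these regulators.

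In the growing HF, progenitors leave the bulge and the germ below it, and cells of the matrix at the base of the follicle then divide and become either hair shaft or inner root sheath. Msx2, Hoxc13 and Foxn1 act in the matrix and in shaft precursors, where they are needed for hair keratin expression, and Msx1 is the close paralogue of Msx2. Gata3 is required for the inner root sheath lineage, Cux1 is needed for normal development of that sheath, and Runx1 promotes the activation of HB stem cells. *Foxn1* is the gene mutated in nude mice.

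None of the 7 genes passed the test at an adjusted p below 0.05, but they did not all sit alike. *Cux1* was 1.76-fold as high in KO as in WT on average and the 2 genotypes did not overlap. *Foxn1* was 1.49-fold as high with 1 overlap between the genotypes, and the means of the other 5 differed by at most 1.11-fold. Of the 21681 genes tested with edgeR, 146 passed (0.673%), 100 of them higher in KO (0.461%). Of the members 0 of 7 passed with edgeR, 0 with limma-voom and 1 (*Cux1*) with DESeq2. At an unadjusted p below 0.05 the number was 2 of 7 (*Cux1* and *Foxn1*, both higher in KO), beside 16.5% of the 13778 genes with a mean count of at least 10. The genotypes did not overlap for 1 of the 7, beside 21.6% of those 13778 genes. The fitted log2 fold change was above 0 for 5 members and below 0 for 2, with a median of 0.14 against 0.00 over all tested genes. In bulk RNA, a larger share of cells of one type and more RNA per cell cannot be told apart.

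The 3 WT libraries held 21167965 to 22851841 counts and the 3 KO libraries 20578309 to 23670507. Levels are given as CPM, that is counts scaled to library size, and 3 counts, taken as the floor, were worth 0.128 to 0.145 CPM. The floor covers counting error only. The floxed gene itself checked the labels: *Itga3* stood at 371, 252 and 271 CPM in the WT libraries (named a, b and c, in that order here and below) and at 131, 124 and 134 CPM in the KO libraries, named likewise (log2 fold change -1.2, SE 0.13, adjusted p = 0.00283, but 0.13 without WT c and 0.0934 without KO a). The keratin genes *Krt5* and *Krt15*, the latter an HB marker, were at 14267 CPM or more and 9616 CPM or more in every library. Of the 15 genes listed as HB markers, which included *Krt5*, only *Cd34* passed the test, beside 0.673% of all tested genes. It was at 806 to 881 CPM in WT and 399 to 625 CPM in KO (log2 fold change -0.72, adjusted p = 0.0462, but 0.0685, 0.379, 0.25 and 0.184 without WT b, WT c, KO a or KO c). Of these 15 genes, 12 had a fitted value below 0 and 3 above, with a median log2 fold change of -0.10. The 4 with an unadjusted p below 0.05, beside 16.5% of the genes with a mean count of at least 10, were all lower in KO. Markers of other cell types were summed per library. The 15 immune marker genes tested summed to 70.7 to 104 CPM in WT and 32.3 to 64.5 in KO, with *Cd3d*, *Cd8a*, *Lyz2* and *Fcgr3* at or below the floor in all libraries. The 14 fibroblast and dermal papilla markers summed to 402 to 497 and 234 to 391 CPM, with *Lum*, *Corin*, *Rspo3*, *Alx4*, *Lox* and *Prrx1* at or below the floor. The 11 sebaceous markers summed to 943 to 1651 and 1362 to 2274 CPM, the 13 interfollicular differentiation markers to 2343 to 2820 and 2835 to 2914, the 9 melanocyte markers to 8.67 to 17 and 13.3 to 14.6, and the 7 endothelial markers to 9.16 to 12.7 and 7.4 to 9 (*Cldn5* had no count, and *Cdh5* and *Emcn* were at or below the floor). The 12 cycling markers summed to 515 CPM in WT a, 1039 in WT b and 1259 in WT c, and to 790 to 1135 in KO. No gene of these 6 lists or of the cycling list passed with edgeR, none with limma-voom, and with DESeq2 2 interfollicular, 1 immune, 2 fibroblast and 1 endothelial gene did. At an unadjusted p below 0.05 there were 5 interfollicular (4 higher in KO), 5 sebaceous (all higher), 3 immune (all lower), 5 fibroblast (2 higher) and 2 endothelial genes (1 higher). There were 0 melanocyte and cycling genes, and the share over the genes with a mean count of at least 10 was 16.5%. The immune, fibroblast and endothelial sums were lower in every KO library than in every WT library and the interfollicular sums higher. These sums follow a few abundant genes, such as *Thy1*, which gave 79.7 of the 96.7 immune CPM in WT a, and *Sparc*, which gave 306 of the 497 fibroblast CPM. Gene by gene, the immune list had 8 fitted values above 0 and 7 below (median log2 fold change 0.01), the fibroblast list 8 and 6 (median 0.62, with 2 of its 5 unadjusted calls higher in KO) and the endothelial list 4 and 3 (median 0.02). The interfollicular list had 9 above and 4 below (median 0.26) and the sebaceous list 8 and 3 (median 0.27). The melanocyte list had 7 and 2 (median 0.34) and the cycling list 3 and 9 (median -0.13). A mean count of at least 10 was reached by 5 of the 15 immune, 7 of the 14 fibroblast and 4 of the 7 endothelial genes. It was also reached by 9 of the 11 sebaceous and 5 of the 9 melanocyte genes, and by all interfollicular and cycling genes. The other fitted values rest on fewer counts, and these tallies and medians take them in. The part of these cell types in the results below was not tested.

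**Figure D1:**
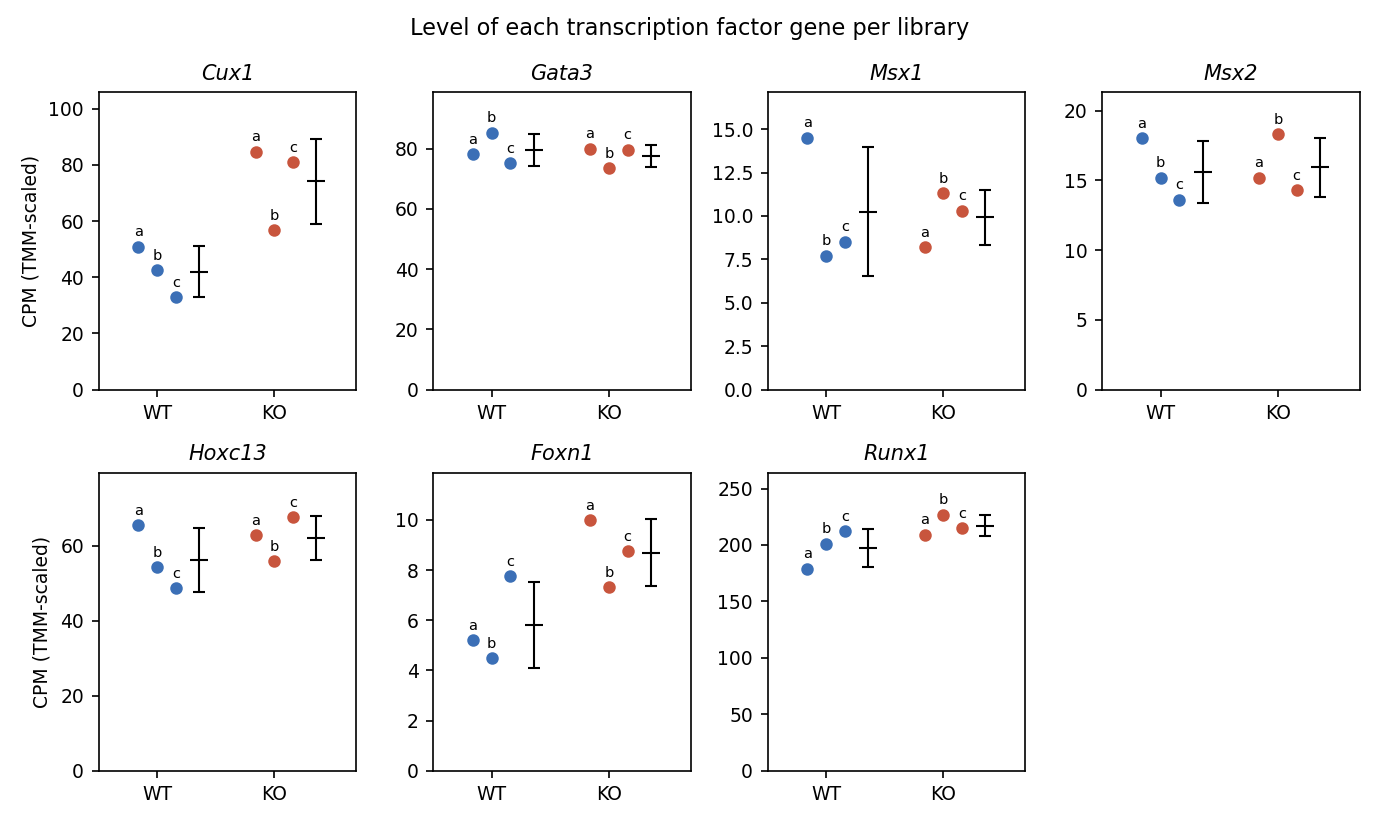
Level of each of the 7 genes in the 3 WT (blue) and 3 KO (red) libraries, in CPM scaled by TMM factors, with the mean and SD of each genotype in black and each axis starting at 0. The KO libraries of *Cux1* (56.8 to 84.7 CPM) lay above the WT libraries (32.8 to 50.9 CPM), while the genotypes overlapped for the other 6 genes.

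Promoter sequence was drawn on for the letters that the name of one member points to. The Cux1 protein is also known as the CCAAT displacement protein, and a CCAAT match was not taken as a site that Cux1 binds. The 250 bases before the annotated start were read from the RefSeq promoter table (GRCm38.p6), which matched 6 of the 7 members with 7 windows, *Runx1* having 2. Both strands were searched for the letters of 8 motifs, and their frequency was counted over all 32817 promoters of this length in the table. The CCAAT box (CCAAT) was held by 33.8% of these promoters. The palindromic homeodomain letters TAATTA were held by 4.85%, and the letters preferred by Msx proteins (TAATTG) by 7.17%. The letters for the posterior Hox proteins (TTTAT) were held by 37.3%, those for Foxn1 (GACGC) by 22.6% and those for Gata factors (GATAA) by 22.6%. The Runx letters (TGTGGT) were held by 14% and the letters of TCF and LEF proteins (CTTTGA) by 13.8%. The CCAAT box and the palindrome were added to the search after the sequences had been seen. The windows that held CCAAT and no annotated exon are shown 5′ to 3′ on the gene's strand, all on the minus strand, with the CCAAT box of either strand in capitals (read as ATTGG where it is on the other strand). In *Foxn1* the capitals also take in the homeodomain palindrome, whose last base is the first of that box.
Foxn1, chr11:78386609-78386858: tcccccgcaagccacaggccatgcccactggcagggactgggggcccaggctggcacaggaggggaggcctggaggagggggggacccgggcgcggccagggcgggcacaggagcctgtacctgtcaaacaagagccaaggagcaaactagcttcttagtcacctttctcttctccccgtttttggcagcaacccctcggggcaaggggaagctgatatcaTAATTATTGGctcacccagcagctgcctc
Msx1, chr5:37824586-37824835: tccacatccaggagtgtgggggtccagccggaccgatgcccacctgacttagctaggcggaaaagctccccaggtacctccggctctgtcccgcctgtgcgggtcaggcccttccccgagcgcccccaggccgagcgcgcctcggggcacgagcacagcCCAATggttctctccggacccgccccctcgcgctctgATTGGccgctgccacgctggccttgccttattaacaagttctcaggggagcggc
Runx1, chr16:92697330-92697579: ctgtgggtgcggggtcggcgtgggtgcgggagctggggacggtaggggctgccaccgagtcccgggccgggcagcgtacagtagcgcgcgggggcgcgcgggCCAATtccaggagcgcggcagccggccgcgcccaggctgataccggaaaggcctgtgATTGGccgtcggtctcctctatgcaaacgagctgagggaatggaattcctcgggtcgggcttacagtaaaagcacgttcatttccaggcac
The CCAAT letters began 24 bases before the *Foxn1* start, 91 and 54 before the *Msx1* start, and 148 and 91 before this *Runx1* start. The *Cux1* window held none of the 8 motifs. A match describes the letters only, and these windows held no measurement of binding.

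The genes for inner root sheath development were *Cux1* and *Gata3*. *Cux1* (ENSMUSG00000029705, GRCm38 chr5:136248135-136567490) was measured at 50.9, 42.4 and 32.8 CPM in WT and at 84.7, 56.8 and 80.9 CPM in KO. Every KO library lay above every WT library, with KO b the nearest to WT. The means were 42.0 ± 9.07 and 74.1 ± 15.1 CPM (SD, n = 3), a log2 fold change of 0.82 (SE 0.17, 95% interval 0.44 to 1.2, or 1.36- to 2.29-fold). With edgeR the unadjusted p was 0.000516 and the adjusted p 0.0623, and the exact two-sided permutation test gave p = 0.1, the smallest that 3 against 3 libraries allow. DESeq2 called the gene (adjusted p = 0.00275), as did edgeR without WT a (adjusted p = 0.016) or without KO b (adjusted p = 0.02), whereas the adjusted p was 0.457 without KO a and 0.4 without WT c. The counts behind these values were 743 to 1109 in WT and 1211 to 1992 in KO, so counting alone would give a coefficient of variation of 3.29% and 2.48%, beside 21.6% and 20.4% observed. The *Cux1* locus has 14 annotated transcripts, and also encodes the Golgi protein CASP from shared exons. The gene counts do not separate the isoforms. The TEC genes *A430110C17Rik* and *Gm38082* overlap it on the same strand and *Gm16599* on the other, and the counting took the strand into account.

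*Gata3* (ENSMUSG00000015619, chr2:9857078-9890034) was at 78.1, 85.3 and 75.2 CPM in WT and 79.9, 73.4 and 79.6 CPM in KO. The ranges overlapped, with the highest value in WT b and the lowest in KO b. The log2 fold change was -0.03 (SE 0.09, 95% interval -0.23 to 0.16, or 0.853- to 1.12-fold, adjusted p = 0.898). *9230102O04Rik* overlaps the gene on the same strand.

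Next came the factors of the matrix and hair shaft. *Foxn1* (ENSMUSG00000002057, chr11:78357577-78386558) was at 5.19, 4.49 and 7.76 CPM in WT and 9.99, 7.32 and 8.75 CPM in KO. The genotypes met where WT c lay above KO b, and the other KO libraries lay above all WT libraries. The means were 5.81 ± 1.72 and 8.69 ± 1.34 CPM (SD, n = 3), and the log2 fold change was 0.58 (SE 0.22, 95% interval 0.10 to 1.06, or 1.07- to 2.08-fold). The edgeR p was 0.022 unadjusted and 0.318 adjusted, and the exact permutation p was 0.2. No alternative called it, and the adjusted p ran from 0.213 with DESeq2 to 0.77 without KO a. Counts were 98 to 176 in WT and 156 to 235 in KO, the fewest of the 7 genes by mean. *Foxn1* lies on the chromosome of the floxed *Itga3* allele, 16.7 Mb from it, and whether linked sequence differed between the genotypes was not tested.

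*Hoxc13* (ENSMUSG00000001655, chr15:102921103-102928814), at the 5′ end of the Hoxc cluster, was at 65.5, 54.2 and 48.7 CPM in WT and 62.8, 55.9 and 67.6 CPM in KO. WT a lay between KO a and KO c, while WT b and WT c lay below all KO libraries. The log2 fold change was 0.15 (SE 0.12, 95% interval -0.12 to 0.41, or 0.921- to 1.33-fold, adjusted p = 0.681).

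The paralogues *Msx1* (ENSMUSG00000048450, chr5:37820485-37824583) and *Msx2* (ENSMUSG00000021469, chr13:53466884-53473074) encode homeodomain repressors. *Msx1* was at 14.5, 7.7 and 8.51 CPM in WT and 8.2, 11.3 and 10.3 CPM in KO. WT a stood above all other libraries and the other WT libraries lay at the lower end, giving a coefficient of variation of 36.5% in WT against 15.7% in KO, where counting alone would give 6.65% and 6.81%. The log2 fold change was -0.05 (SE 0.23, 95% interval -0.55 to 0.46, or 0.681- to 1.37-fold, adjusted p = 0.957), and without WT a it was 0.30. *Msx2* was at 18.0, 15.2 and 13.6 CPM in WT and 15.2, 18.3 and 14.3 CPM in KO. These values interleaved, and the log2 fold change was 0.03 (SE 0.15, 95% interval -0.30 to 0.36, or 0.813- to 1.28-fold, adjusted p = 0.958). For both genes the sign turned in some fits without 1 library.

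*Runx1* (ENSMUSG00000022952, chr16:92601466-92826149), which acts in HB stem cells rather than in the matrix alone, was at 179, 201 and 212 CPM in WT and 209, 227 and 215 CPM in KO. WT c lay between KO a and KO c, and the other WT libraries lay below all KO libraries. The means were 198 ± 16.8 and 217 ± 9.12 CPM (SD, n = 3), with a log2 fold change of 0.14 (SE 0.09, 95% interval -0.07 to 0.34, or 0.953- to 1.27-fold, adjusted p = 0.638). It had the narrowest relative spread among KO libraries, 4.2%, and the second narrowest among WT libraries, 8.5%, after *Gata3* at 6.56%.

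**Figure D2:**
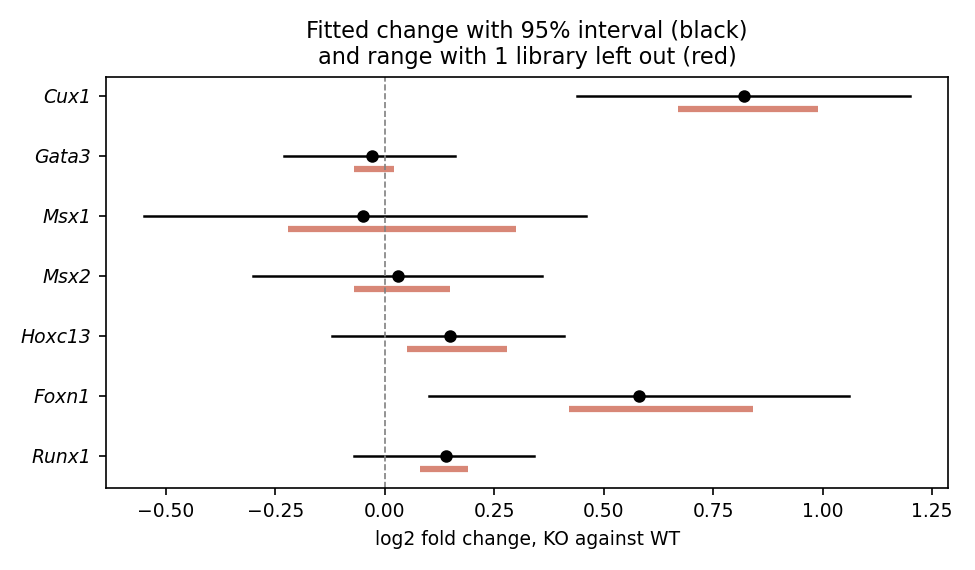
Fitted log2 fold change of KO against WT for the 7 genes (point) with its 95% interval (black line) and the range of the 6 fits that each leave out 1 library (red bar). *Cux1* (0.82) and *Foxn1* (0.58) have intervals above 0, and the red bars of *Msx1*, *Msx2* and *Gata3* cross 0.

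Levels were compared between genes only as CPM per kilobase of annotated exon. In WT, *Hoxc13* stood highest at 22.8 CPM per kb, followed by *Gata3* at 20, *Runx1* at 16.4, *Msx2* at 4.76, *Msx1* at 3.31, *Cux1* at 2.1 and *Foxn1* at 1.81. *Gata3* and *Runx1* did not overlap in WT, nor did *Runx1* and *Msx2*, whereas the other neighbours in this order did. In KO the means were 25.2 for *Hoxc13*, 19.5 for *Gata3*, 18.1 for *Runx1*, 4.86 for *Msx2*, 3.70 for *Cux1*, 3.20 for *Msx1* and 2.70 for *Foxn1*. *Hoxc13* and *Gata3*, *Runx1* and *Msx2*, and *Msx2* and *Cux1* did not overlap in KO, and the other neighbours did. Among all genes with an exon length, *Hoxc13*, *Gata3* and *Runx1* lay at the 89.7, 88.0 and 85.2 percentiles of the WT level and *Foxn1* at the 51.4. The order rests on the length used: *Cux1* has 20024 bases of exon over all transcripts and *Runx1* 12025. Divided by the longest transcript, an alternative chosen after seeing the data, the WT levels were 33.7 for *Runx1*, 24.7 for *Gata3* and 22.8 CPM per kb for *Hoxc13*.

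The 7 genes had their highest value in different libraries, *Msx1* in WT a, *Gata3* in WT b, *Foxn1* and *Cux1* in KO a, *Msx2* and *Runx1* in KO b and *Hoxc13* in KO c. As a description over 6 libraries that share depth and sort, the genes whose log2(CPM + 0.5) followed each member most closely were read off by Pearson's r among the 13778 genes. For *Cux1* they were *Irf2bp2* (r = 0.996), *Tle3* (0.989) and *Abhd2* (0.989), and for *Foxn1* *Etv6* (0.998), *Sos1* (0.992) and *Abcd3* (0.990). For *Hoxc13* they were *Styx* (0.992), *Zfr* (0.987) and *Zfp407* (0.986), and for *Runx1* *Ltb4r1* (0.984), *Bricd5* (0.980) and *Mtm1* (0.972). *Gata3* was followed by *Rapgef5* (0.987), *Trim8* (0.979) and *Paqr3* (0.977), *Msx1* by *Gmppa* (0.991), *Psen2* (0.991) and *Catsper2* (0.988), and *Msx2* by *Rpusd3* (0.989), *Zfp125* (0.983) and *Snx15* (0.979). With so few libraries such values are common: the median of the best r over all these genes was 0.994, above the best r of every member but *Cux1* and *Foxn1*.

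Other transcription factors of the follicle were read from the same fit. This list, like the others, was chosen with earlier results of these data known. Of 27 such regulators, 3 passed, beside 0.673% of all tested genes, and all 3 were higher in KO: *Prdm1*, *Dlx1* and *Foxi3*. At an unadjusted p below 0.05 there were 9 higher and 2 lower, beside 16.5% of the genes with a mean count of at least 10. The median log2 fold change of the 27 was 0.06. The genotypes did not overlap for 9 of the 27, in either direction, beside 21.6% of the genes with a mean count of at least 10. DESeq2 called 5 and limma-voom 0. *Prdm1*, which encodes the repressor Blimp1, was at 17.0, 19.6 and 14.9 CPM in WT and 52.5, 29.0 and 38 CPM in KO (log2 fold change 1.22, SE 0.19, adjusted p = 0.0213). The genotypes did not overlap and KO b was again the lowest KO library. The call was lost without WT c (adjusted p = 0.368), without KO a (0.174) and without KO c (0.0735).

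*Dlx1*, a distal-less homeobox gene of the class that also holds *Dlx3*, was at 5.05, 6.55 and 5.20 CPM in WT and 9.44, 10.1 and 12.7 CPM in KO (log2 fold change 0.94, SE 0.18, adjusted p = 0.0447). *Foxi3*, a forkhead gene expressed in hair placodes and matrix, was at 14.7, 12.0 and 13.8 CPM in WT and 19.3, 23.4 and 31.2 CPM in KO (log2 fold change 0.87, SE 0.17, adjusted p = 0.0483). Neither gene overlapped between genotypes, and KO c was the highest library of both. Without WT c the adjusted p of each was 0.368, and it was also above 0.05 without KO a (0.235 and 0.146), KO b (0.0635 and 0.068) or KO c (0.2 and 0.198), and for *Foxi3* without WT b (0.125). Named after their values were seen, *Dlx2* and *Dlx3* also had every KO library above every WT library, with log2 fold changes of 0.73 (adjusted p = 0.155) and 0.46 (adjusted p = 0.223). *Dlx3* (chr11:95120119-95125296) lies next to *Itga3* (chr11:95044474-95076801). *Lef1*, which mediates Wnt signals in the matrix and was likewise chosen afterwards, overlapped between genotypes, with a log2 fold change of -0.16 (adjusted p = 0.727). *Hr*, the hairless gene, was at 1671 to 1915 CPM in WT and lower in every KO library, at 1239 to 1592 CPM. Its log2 fold change was -0.33 (adjusted p = 0.278). *Trp63*, which encodes a master regulator of epidermal cells, was at 1066 to 1320 CPM in WT and 1131 to 1321 CPM in KO.

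**Figure D3:**
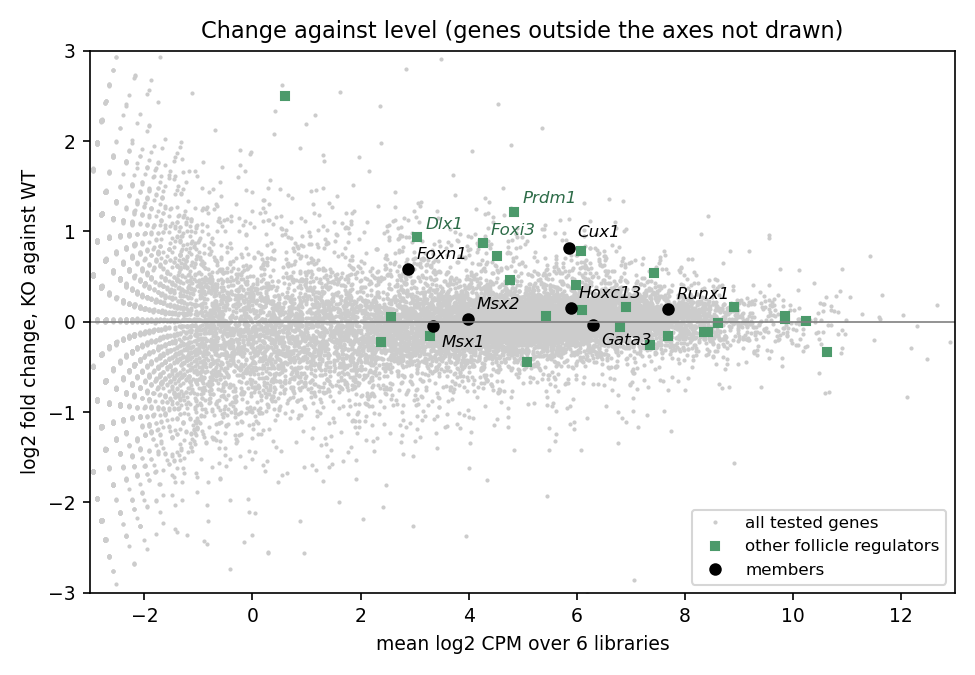
Log2 fold change of KO against WT (vertical axis) against the mean log2 CPM over the 6 libraries (horizontal axis) for all tested genes within the axes (grey), the 27 other follicle regulators (green) and the 7 members (black). *Cux1* (0.82) and *Foxn1* (0.58) sit above the other 5 members, which lie between -0.05 and 0.15.

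Of the paralogues and binding partners of the members, 30 of 36 listed genes were tested and 0 passed with edgeR, 0 with limma-voom and 1 with DESeq2. At an unadjusted p below 0.05 there were 3 higher and 2 lower, beside 16.5% of the genes with a mean count of at least 10. The median log2 fold change was 0.04. *Tle3*, a Groucho corepressor, was at 144, 120 and 108 CPM in WT and 187, 155 and 179 CPM in KO, with no overlap (log2 fold change 0.49, adjusted p = 0.0955). *Runx2*, the paralogue of *Runx1*, was at 1.19 to 2.43 CPM in WT and 3.05 to 4.4 CPM in KO (log2 fold change 0.98, adjusted p = 0.171). *Cbfb*, the partner that all Runx proteins bind DNA with, was at 141 to 144 and 157 to 169 CPM (log2 fold change 0.19, adjusted p = 0.416). *Hoxc6*, a gene of the Hoxc cluster, was at 24.5 to 30.1 CPM in WT and 21.5 to 22.9 CPM in KO (log2 fold change -0.28, adjusted p = 0.384). The genotypes did not overlap for *Runx2*, *Cbfb* and *Hoxc6* either, with *Hoxc6* lower in KO. This made 4 of the 30 genes tested, beside 21.6% of the genes with a mean count of at least 10. Of the 30, 21 reached that count. *Msx3*, *Dlx6*, *Hoxc10*, *Hoxc11*, *Hoxc12* and *Zfpm2* were at or below the floor in all libraries, whereas *Hoxc13*, beside *Hoxc12* in the Hoxc cluster, had 1105 to 1477 counts.

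A list of 28 genes of follicle signals was read too, mostly of the BMP, WNT, SHH, Notch and FGF pathways. It also held *Tgfb2*, *Edar*, *Eda2r*, *Stat3* and *Cdkn1a*. Of the 28, 0 passed with edgeR, 0 with limma-voom and 4 with DESeq2. At an unadjusted p below 0.05 there were 5 higher and 2 lower, beside 16.5% of the genes with a mean count of at least 10. The median log2 fold change was 0.11. *Bmp6*, a ligand of the BMP family, was at 15.4, 14.0 and 10.8 CPM in WT and 24.1, 18.6 and 34.8 CPM in KO (log2 fold change 0.95, adjusted p = 0.0708). *Axin2*, a WNT target, was at 48.9, 45.0 and 36.2 CPM in WT and 24.7, 34.5 and 22.6 CPM in KO (log2 fold change -0.67, adjusted p = 0.1). *Cdkn1a*, an inhibitor of the cell cycle, was at 126 to 149 CPM in WT and 197 to 296 CPM in KO (log2 fold change 0.72, adjusted p = 0.0567). None of these 3 overlapped between genotypes, and nor did 15 of the 28 in all, in either direction, beside 21.6% of the genes with a mean count of at least 10.

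The structural genes of the layers these factors act in were read from the same fit. Of 11 inner root sheath genes tested, 2 passed (0 with limma-voom and 2 with DESeq2), both higher in KO, beside 0.673% of all tested genes. The median log2 fold change was 0.29, and the list summed to 22.3 to 34.6 CPM in WT and 37.9 to 57.2 CPM in KO. *Krt25*, a keratin of that sheath, was at 0.367, 0.641 and 0.176 CPM in WT and 4.85, 1.31 and 6.92 CPM in KO (log2 fold change 3.45, adjusted p = 0.0256). *Krt28*, another, was at 1.33 to 2.06 CPM in WT and 3 to 9.05 CPM in KO (log2 fold change 1.83, adjusted p = 0.0461). Both called genes were thus at low levels, with KO b the lowest KO library, as for *Cux1*, *Foxn1* and *Prdm1*.

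Of 22 hair shaft genes tested, 1 passed (0 with limma-voom and 2 with DESeq2), beside 0.673% of all tested genes. The gene that passed was *Krt35*, a hair keratin of the forming shaft. It was at 0.275, 0.321 and 0.353 CPM in WT and 5.10, 0.703 and 2.61 CPM in KO (log2 fold change 3.13, adjusted p = 0.0462). The 22 genes summed to 131 to 171 CPM in WT and 130 to 173 CPM in KO, most of it *Krt75* at 78.4 to 128 and 74.2 to 126 CPM. The sum thus followed this gene, while 15 of the 22 had a fitted value above 0 and 7 below, with a median log2 fold change of 0.93. At an unadjusted p below 0.05 there were 3 higher and 1 lower, beside 16.5% of the genes with a mean count of at least 10. Of the listed genes, 10 were at or below the floor in at least 5 of the 6 libraries. The calls of *Krt25*, *Krt28* and *Krt35* were lost without WT c (adjusted p = 0.368, 0.382 and 0.386), without KO a (0.29, 0.354 and 0.352) and without KO c (0.116, 0.155 and 0.144), and those of *Krt28* and *Krt35* also without WT b (0.078 and 0.124). They were also lost with limma-voom (0.192, 0.192 and 0.256) and after filterByExpr (0.131, 0.137 and 0.14), and those of *Krt28* and *Krt35* with library size only (0.0553 and 0.055). *Krt25* (chr11:99315516-99322951), *Krt28* (chr11:99364872-99374903) and *Krt35* (chr11:100092193-100096241) lie on the chromosome of the floxed *Itga3* allele, nearer to it than *Foxn1*. Whether linked sequence differed between the genotypes was not tested for them either.

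**Figure D4:**
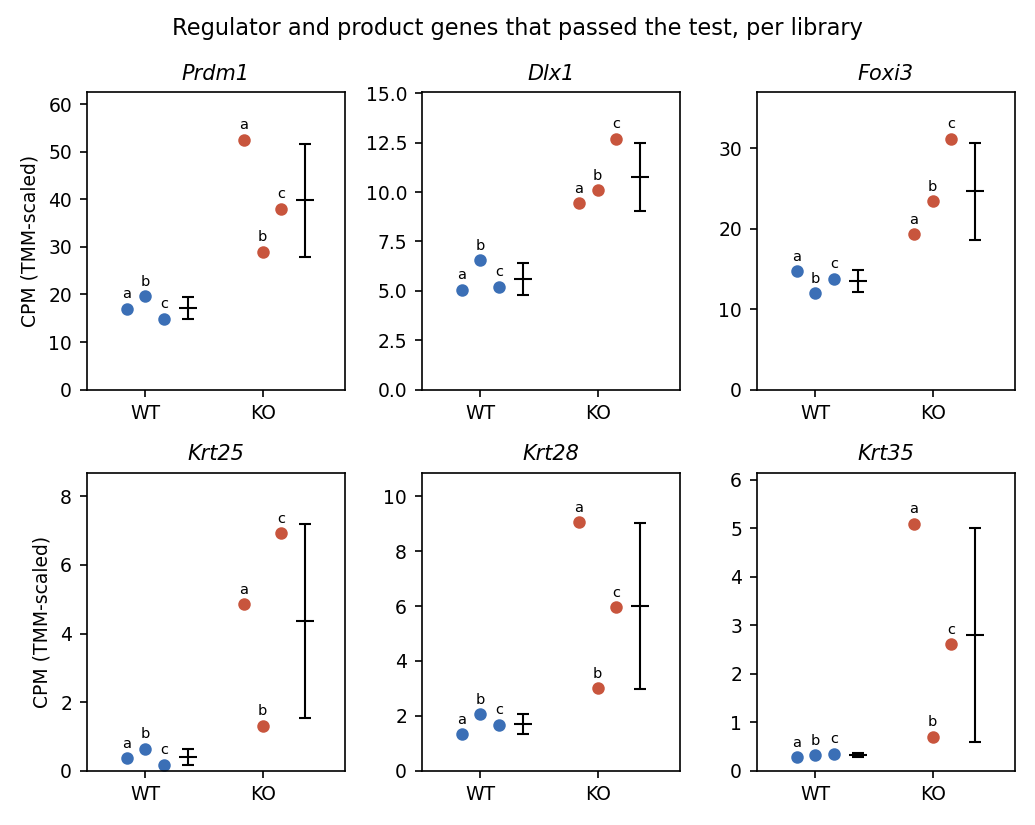
Levels in CPM, scaled by TMM factors, of the 3 follicle regulators (upper row) and 3 follicle structural genes (lower row) that passed the test, in the 3 WT (blue) and 3 KO (red) libraries with mean and SD in black. All KO libraries lie above all WT libraries for each gene, and *Krt25*, *Krt28* and *Krt35* stay below 10 CPM.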

How the data were processed

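GFP-positive keratinocytes of 3 WT and 3 KO samples were profiled by RNA-seq. The authors made strand-specific libraries, aligned the reads with TopHat2 2.1.0 and Bowtie 1.1 (submitters' processing notes) to GRCm38, and counted reads that mapped uniquely to a gene, with regard to strand. The deposited table holds these raw counts. The 6 library columns carry a genotype but no sample number, and libraries of one genotype differed beyond counting noise (chi-square divided by its degrees of freedom, 10.1 to 51.8). In R 4.3.3, edgeR 4.0.16 (TMM factors, quasi-likelihood test, no covariates) was fitted to the 21681 genes with a count in at least 1 library, with Benjamini-Hochberg adjustment over all of them. Every adjusted p is from this fit unless another tool is named. Intervals are 95%. Exact two-sided permutation tests used log2(CPM + 0.5). Exon lengths came from GENCODE vM21. Alternatives were limma-voom (limma 3.58.1), DESeq2 1.42.0, other scalings and filters, and leaving out each library. The members and gene lists were chosen with earlier results of these data known. Besides the members and *Itga3*, genes were named that passed the test, had 1 of the 3 smallest p-values or 1 of the 2 highest mean CPM values of their list, or, for each member, the 3 highest correlations. Within these sets only some were described.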

Additional observations from a re-analysis of the deposited data

How the results depend on the processing

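No paired analysis was possible because the library columns carry a genotype but no replicate number. Neither the sample labels nor the paper describes pairs of WT and KO mice, so replicate numbers would not by themselves mark pairs. The genotypes were compared as unpaired groups. Of the 7 members, 0 passed with edgeR under the other scalings and filters and with limma-voom (2 of 7 at an unadjusted p below 0.05 in each), 1 (*Cux1*) with DESeq2, and 0 to 1 when 1 library was left out. *Cux1* was higher in KO under all 12 alternatives, with a log2 fold change of 0.67 to 0.99, as was *Foxn1*, with 0.42 to 0.84. With 1 library left out the log2 fold change ran from -0.22 to 0.30 for *Msx1*, from -0.07 to 0.15 for *Msx2*, from -0.07 to 0.02 for *Gata3* and from -0.33 to 0.01 for *Lef1*, turning sign in each. Of all genes, 146 passed in the fit reported, 24 with limma-voom, 546 with DESeq2, 15 with filterByExpr, 12 where no library fell under 10 counts, and 5 (without WT c) to 521 (without WT a) with 1 library left out. Of the 208 genes tested in the other lists, 7 passed in the fit reported, beside 0.673% of all tested genes. The number was 22 with DESeq2, 3 with library size only, and 0 with limma-voom, filterByExpr or the minimum of 10 counts. At an unadjusted p below 0.05, limma-voom, filterByExpr and the minimum of 10 counts gave 54, 43 and 38. With 1 library left out, 0 to 18 passed. The cause of these differences was not tested. For *Foxn1*, *Msx1* and *Msx2*, only larger changes were detectable than for *Runx1* or *Gata3*, as their wider intervals show. These genes had the fewest counts, but their spread between libraries went beyond counting. The coefficients of variation in WT were 29.6%, 36.5% and 14.5%, where counting alone would give 8.8%, 6.65% and 5.39%. *Cux1*, with more counts, had an SE of 0.17, beside 0.15 for *Msx2*.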
